A study of Drosophila melanogaster with 8 samples.

Results

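Binding of the transcription factor Bicoid (Bcd) was described at 6 head patterning genes of Drosophila melanogaster, in zelda mutant and in wild-type embryos, both aged 1 to 3 h from egg laying. The genes were oc, btd, ems, slp1, slp2 and croc, and the regions were the Bcd peaks that overlapped by at least 1 bp any of 5 fixed windows of the dm3 genome. The windows ran on X from 8510000 to 8570000 for oc, on X from 9560000 to 9600000 for btd, on 3R from 9690000 to 9740000 for ems, on 2L from 3810000 to 3850000 for slp1 and slp2 together, and on 3L from 21445000 to 21480000 for croc. They held 40 of the 6541 peaks of the study, which were 23 of the 2650 mutant peaks and 17 of the 3891 wild-type peaks.

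The study used chromatin immunoprecipitation with sequencing (ChIP-seq) with a rabbit antiserum against Bcd. It had 2 ChIP libraries and 2 input libraries for the zelda mutant, and the same for wild type. The labels give the genotype only as zelda mutant, with neither the allele nor how the embryos were obtained, and the peak lists hold no measure of zelda itself that could check the label. The authors deposited 1 peak list per genotype, so no value here has a spread between replicates and no difference between the genotypes was tested. The 2 lists differed in depth, with 10060479 filtered ChIP tags (aligned reads left after removal of duplicates) in the mutant and 39154546 in wild type, a ratio of 3.89 for wild type over mutant. A deeper library passes the peak caller's fixed p cutoff with more and longer peaks, so depth and genotype cannot be told apart in peak number and length.

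Bcd is a homeodomain factor translated from maternal mRNA, and its gradient from the anterior pole activates the genes that pattern the head. The head gap genes oc (ocelliless, also called orthodenticle), btd (buttonhead) and ems (empty spiracles) are expressed in overlapping anterior domains, and their loss removes head segments. oc and ems encode homeodomain factors and btd a zinc finger factor of the Sp family. The paralogs slp1 and slp2 (sloppy paired) encode forkhead factors that act in head and trunk segmentation, and croc (crocodile) encodes a forkhead factor of the anterior head. Zelda is a maternal zinc finger factor that opens chromatin at many early enhancers. In the RefSeq gene table, which is for Release 6 of the genome and was used for gene order alone, the nearest coding genes were Caf1-180 and Rubicon beside oc, nej and Sp1 beside btd, E5 and Art9 beside ems, and Syx7 and Neu2 beside croc, while slp1 and slp2 lay next to each other. Sp1 encodes a relative of btd and E5 a relative of ems, so a peak in these windows need not belong to the gene that names the window.

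The 5 windows held more Bcd peaks in the mutant list than in the wild-type list, 23 against 17, although the chromosome arms as a whole held fewer, 1870 against 2827. The mutant had more peaks at oc (5 against 4), ems (8 against 5) and slp1 and slp2 (4 against 2), and the same number at btd (3 and 3) and croc (3 and 3). Over the 5 windows, this excess of 6 matched the division of regions found in both lists. In 6 cases 1 wild-type peak overlapped a pair of mutant peaks, and each list held 2 peaks without overlap in the other. No excess remained among peaks with a low false discovery rate (FDR, estimated by the peak caller). An FDR of at most 5% was met by 9 of the 23 mutant peaks, or 39.1% (Wilson 95% interval 22.2 to 59.2), beside 13.2% of mutant arm peaks. It was met by 13 of the 17 wild-type peaks, or 76.5% (52.7 to 90.4), beside 35.3% of wild-type arm peaks. The called length was shorter in the mutant at each of the 5 loci. In all, mutant peaks covered 37.2 kb and wild-type peaks 55.2 kb, a ratio of 0.673, against 0.407 over all arm peaks. The mean density over the called length was 17.9 RPKM in the mutant and 16.5 RPKM in wild type. RPKM is the number of tags per kb of peak and per 1000000 filtered ChIP tags, and RPM below is the same without division by length. The density ratio, mutant over wild type, was 1.09, against 1.19 over all arm peaks. By locus it ran from 0.944 at croc to 1.21 at btd. Before scaling for depth, single peaks ranged from 116 to 253 tags per kb in the mutant and from 399 to 909 in wild type. The intervals on tag counts and density ratios cover counting error only, and they treat tags as independent, which sequencing tags are not. The Wilson intervals treat peaks as independent draws. All peaks of the windows were counted, and some are adjacent pieces of 1 divided region, so these intervals are descriptive only.

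**Figure D1:**
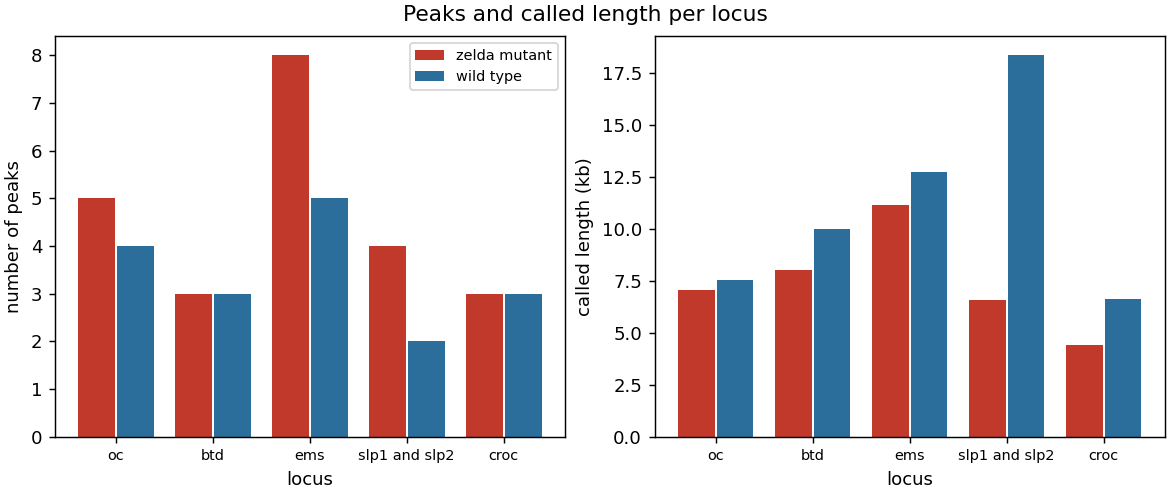
Number of Bcd peaks (left, count) and summed peak length (right, kb) per locus, zelda mutant beside wild type, with 1 deposited list per genotype and therefore no error bars. The mutant had as many peaks as wild type or more at each locus, with less called length, and the widest gap in length was at slp1 and slp2, with 6.58 kb in the mutant and 18.3 kb in wild type.

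Most of these regions were found in both genotypes. A wild-type peak overlapped 21 of the 23 mutant regions, or 91.3% (73.2 to 97.6), beside 74.4% of all mutant arm peaks. A mutant peak overlapped 15 of the 17 wild-type regions, or 88.2% (65.7 to 96.7), beside 45.5% of all wild-type arm peaks. When at least 50% of both peaks had to overlap, 11 mutant peaks (47.8%) and 11 wild-type peaks (64.7%) remained shared, beside 50.4% and 33.4% on the arms, so the mutant share was then no higher than on the arms. The wild-type peaks of these loci were stronger than most, and stronger peaks were shared more often across the arms. At a wild-type score (−10 times the log10 of the peak caller's p-value) of at least 400, a limit chosen after the values were seen, 13 of 13 peaks at these loci were shared, beside 60.7% of arm peaks. On the X chromosome, which carries oc and btd, 7 of 8 mutant and 7 of 7 wild-type peaks of these loci were shared, beside 71.9% of mutant and 44.7% of wild-type X peaks.

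**Figure D2:**
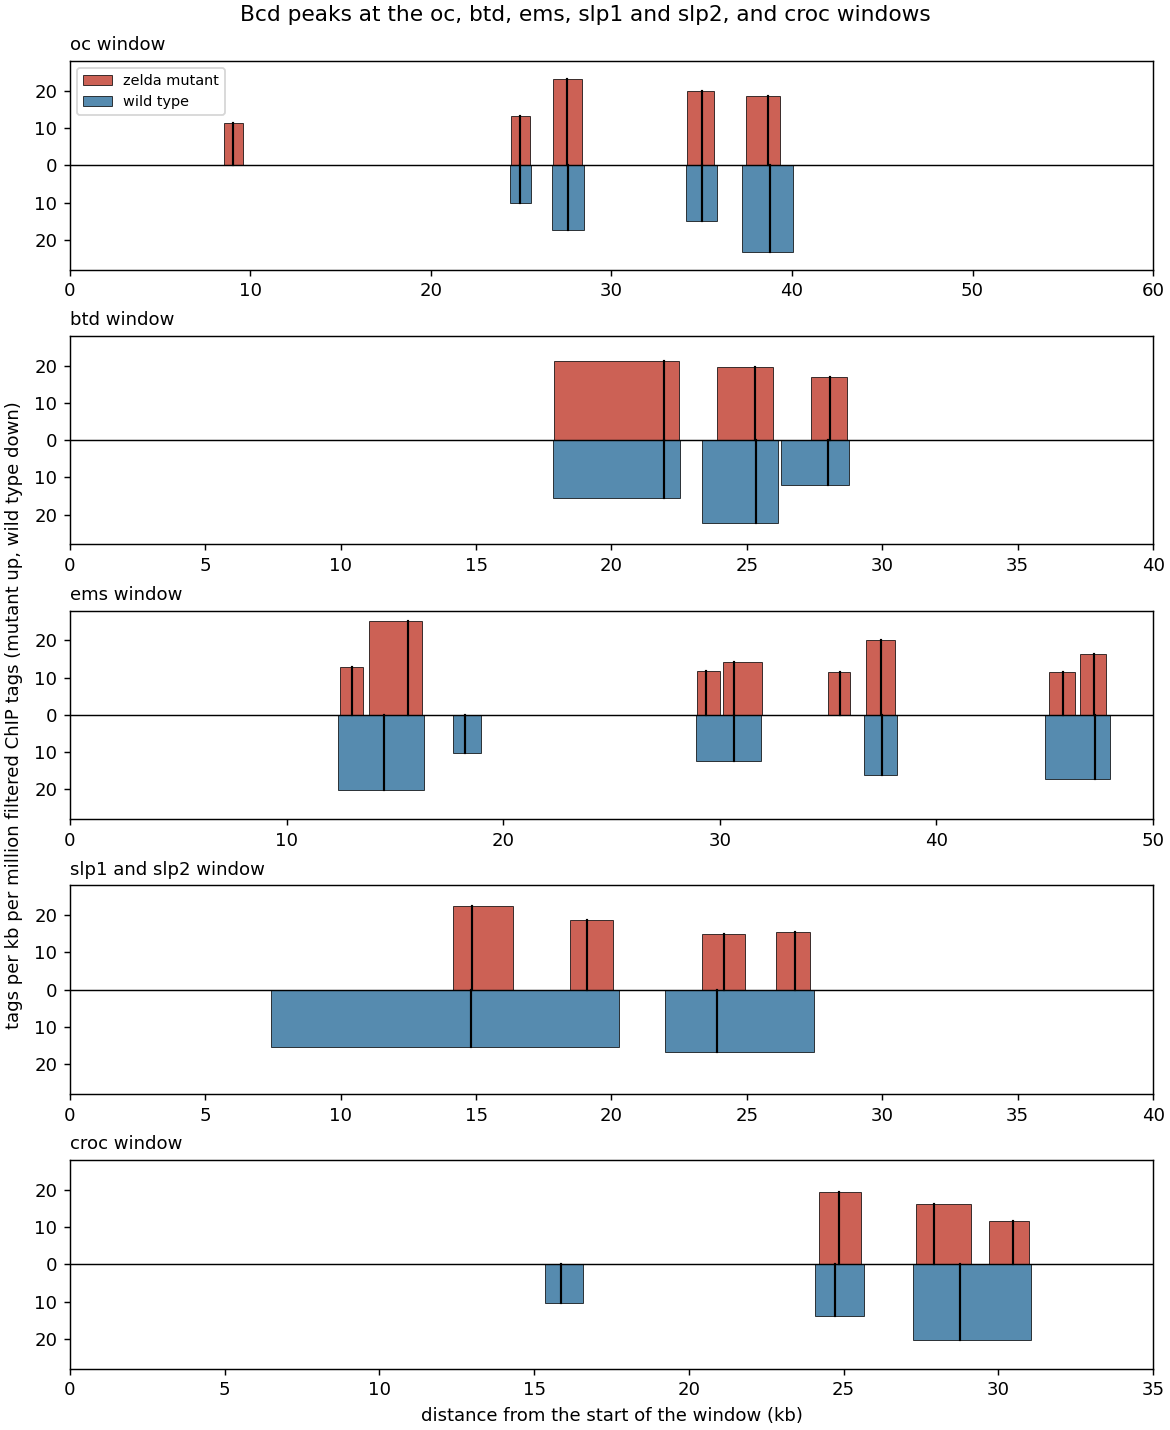
Bcd peaks in the 5 windows, by distance from the window start (kb); a box spans a called peak, its height is its mean density (RPKM), zelda mutant upwards and wild type downwards, and the line marks the summit. A pair of separate mutant peaks faces 3 of the 5 wild-type peaks at ems, 2 of 2 at slp1 and slp2 and 1 of 3 at croc, while each wild-type peak at oc and btd faces 1.

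At oc, 4 regions were bound in both genotypes, and the strongest of them was not the same one. The leading mutant peak, on X from 8536765 to 8538389, had a fold enrichment (the authors' ratio of ChIP to local background) of 10.35 in the mutant and 10.95 in its wild-type partner from 8536719 to 8538487. It held 379 tags over 1625 bp in the mutant (exact Poisson 95% interval 342 to 419), or 23.2 RPKM, against 1203 tags over 1769 bp in wild type (1136 to 1273), or 17.4 RPKM. The leading wild-type peak lay further on, from 8547237 to 8550053, with a mutant partner from 8547442 to 8549307. There the fold was 6.35 in the mutant and 12.47 in wild type. It held 349 tags over 1866 bp in the mutant (313 to 388), or 18.6 RPKM, against 2562 tags over 2817 bp in wild type (2464 to 2663), or 23.2 RPKM.

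These oc regions stood in opposite order of density in the 2 lists. They were named for the highest fold at oc, one among mutant and the other among wild-type peaks, a choice that favours opposite ratios, so the ratios are given as a description. The ratio of density, mutant over wild type, was 1.33 (exact conditional 95% interval 1.19 to 1.50) at the region from 8536765 and 0.800 (0.714 to 0.895) at the region from 8547442. The called length also differed between them, at 0.919 and 0.662 of the wild-type length, and its part in the ratios was not tested. The other shared oc regions were, like the region from 8536765, denser in the mutant, with ratios of 1.30 (1.08 to 1.58) at the mutant peak from 8534429 to 8535503 and 1.35 (1.18 to 1.54) at the one from 8544189 to 8545650. Their folds were 4.41 and 5.64 in the mutant, against 6.22 and 8.17 in wild type.

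One oc region was in the mutant list alone, on X from 8518532 to 8519561, with 119 tags (98.6 to 142), a density of 11.5 RPKM, a fold of 5.29 and an FDR of 10.9%. The nearest wild-type peak lay 14.8 kb away. Just outside the window, the mutant peak from 8499870 to 8501152 had a fold of 10.71, against 8.6 in wild type from 8499807 to 8501158, and a further mutant peak began at 8570421.

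At btd, the 3 regions were the same in both lists and their summits lay 7 to 57 bp apart. The longest, from 9577884 to 9582505 in the mutant and from 9577846 to 9582545 in wild type, kept nearly its whole length, with 4622 bp in the mutant and 4700 bp in wild type. It held 983 mutant tags (923 to 1046) and 2855 wild-type tags (2751 to 2962), and its density was 21.1 RPKM in the mutant and 15.5 RPKM in wild type, a ratio of 1.36 (1.27 to 1.47). Its fold was nearly level, at 7.35 in the mutant and 7.61 in wild type.

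The region with the highest fold at btd in both lists ran from 9583896 to 9585961 in the mutant and from 9583353 to 9586133 in wild type. Its fold was 8.16 in the mutant and 12.34 in wild type. It held 406 mutant tags (367 to 447) and 2412 wild-type tags (2317 to 2510), and its density was 19.5 RPKM in the mutant and 22.2 RPKM in wild type, a ratio of 0.882 (0.792 to 0.980). The last region was the most narrowed single pair of these loci, with 1324 bp in the mutant from 9587369 and 2510 bp in wild type from 9586265. Its fold was 5.62 in the mutant and 7.92 in wild type, and its density 17.0 RPKM in the mutant and 12.1 RPKM in wild type. At btd as at oc, the region with the highest wild-type fold was the one that was less dense in the mutant. Picking a region by its wild-type value favours such a low ratio, so this is given as a description.

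At ems, 3 wild-type peaks each corresponded to a pair of mutant peaks. The mutant peak with the highest fold in the 5 windows was one of them, on 3R from 9703809 to 9706247, where the fold was 11.33 and the tags numbered 618 (570 to 669). It ranked number 8 by fold among the 1870 mutant arm peaks. Together with a weaker mutant peak from 9702466 to 9703510 (fold 3.89) it lay under the wild-type peak from 9702372 to 9706322, which had a fold of 11.81 and 3132 tags (3023 to 3244). The wild-type summit lay between the mutant ones, 1123 bp from that of the stronger mutant peak. Together the mutant peaks spanned 88.2% of the wild-type length, with a density of 21.5 RPKM in the mutant and 20.2 RPKM in wild type.

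Further on, mutant peaks from 9735203 to 9736394 (fold 3.32, 138 tags, 116 to 163) and from 9736627 to 9737839 (fold 6.50, 199 tags, 172 to 229) lay under the wild-type peak with the highest fold of the locus. That peak, from 9735030 to 9738026, held 2032 tags (1945 to 2122) at a fold of 12.02. The joint density was 13.9 RPKM in the mutant and 17.3 RPKM in wild type, and the stronger mutant summit was 61 bp from the wild-type one. In the remaining divided region, mutant peaks with folds of 3.32 and 5.88 lay under a wild-type peak from 9718901 to 9721899 with a fold of 8.45. The stronger of these had its summit 29 bp from the wild-type one.

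The single pair at ems, from 9726758 to 9728107 in the mutant and from 9726669 to 9728186 in wild type, had folds of 7.48 in the mutant and 9.77 in wild type. Its densities were 20.0 RPKM in the mutant and 16.3 RPKM in wild type. Each list also held an unshared region at ems. The mutant one ran from 9725012 to 9726031, with 119 tags (98.6 to 142), a density of 11.6 RPKM, a fold of 3.60 and an FDR of 10.9%, and it lay 0.638 kb from the wild-type peak of the single pair. The wild-type one ran from 9707690 to 9708966, with 516 tags (472 to 563), a density of 10.3 RPKM, a fold of 5.98 and an FDR of 10.9%, and lay 1.44 kb from the nearest mutant peak. Both were among the weaker peaks of the locus in their own list.

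The slp1 and slp2 locus showed the widest gap in called length. In the mutant 4 short peaks covered 6.58 kb, while in wild type 2 broad peaks covered 18.3 kb, a ratio of 0.359. The leading mutant peak ran on 2L from 3824145 to 3826345 and held 498 tags (455 to 544) at a fold of 7.92. Beside it, a mutant peak from 3828474 to 3830048 held 298 tags (265 to 334) at a fold of 5.17. Both lay under a wild-type peak from 3817437 to 3830292, which held 7782 tags (7610 to 7957) at a fold of 10.22. Its length of 12856 bp ranked number 2 among the 2827 wild-type arm peaks. Together the mutant peaks spanned 29.4% of the wild-type length, and the left 6708 bp of the wild-type peak held no mutant peak.

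The summit of this broad region was in the same place in both lists, 6 bp apart. The mean density over the called length was 21.0 RPKM in the mutant and 15.5 RPKM in wild type, while the summed tags came to 79.1 RPM in the mutant and 199 RPM in wild type. The other mutant peaks, from 3833359 to 3834911 (fold 4.53, 233 tags, 204 to 265) and from 3836086 to 3837335 (fold 4.72, 196 tags, 170 to 225), lay under the wild-type peak from 3831990 to 3837469. That peak held 3593 tags (3476 to 3712) at a fold of 10.49. The joint density was 15.2 RPKM in the mutant and 16.7 RPKM in wild type. The wild-type summit lay 242 bp from the nearer mutant summit and 2865 bp from that of the peak with the higher mutant fold. Peaks of 5 kb or more numbered 15 among the mutant arm peaks and 250 among the wild-type arm peaks; these loci held 0 of the mutant ones and 2 of the wild-type ones.

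At croc, the highest fold was lower than at the other loci in both lists. The leading mutant peak ran on 3L from 21472333 to 21474100 and held 291 tags (259 to 326) at a fold of 5.27. A mutant peak beside it, from 21474690 to 21475983, held 152 tags (129 to 178) at a fold of 2.85. Both lay under the leading wild-type peak, from 21472239 to 21476052, which held 3031 tags (2924 to 3141) at a fold of 7.58. The joint density was 14.4 RPKM in the mutant and 20.3 RPKM in wild type, a ratio of 0.709, the lowest among the divided regions of these loci. The wild-type summit was 836 bp from the nearer mutant summit.

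The other shared croc region, from 21469197 to 21470551 in the mutant and from 21469070 to 21470656 in wild type, had folds of 4.13 in the mutant and 4.49 in wild type. Its density was 19.6 RPKM in the mutant and 14.0 RPKM in wild type, a ratio of 1.40 (1.22 to 1.61). A wild-type region without a mutant peak lay from 21460338 to 21461576, with 503 tags (460 to 549), a density of 10.4 RPKM, a fold of 5.78 and an FDR of 13.5%. The nearest mutant peak was 7.62 kb away. With the FDR limited to 5%, croc had 0 mutant peaks and 1 wild-type peak.

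Across the loci, division of a wild-type region into several mutant peaks was frequent. Of the 15 shared wild-type peaks, 6 overlapped a pair of mutant peaks, or 40.0% (19.8 to 64.3), beside 7.39% of shared wild-type arm peaks with at least 2 mutant partners. They lay at ems (3), slp1 and slp2 (2) and croc (1), and none lay at oc or btd. Longer peaks can hold more partners: among those of at least 2500 bp, a limit chosen after the values were seen, it was 6 of 10 at these loci and 15.7% on the arms. Whether the shallower mutant library alone would divide these regions was not tested.

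In the 9 single pairs, where 1 mutant peak and 1 wild-type peak overlapped each other and no other peak, each mutant peak lay within its wild-type partner. The mutant peak was thus shorter in 9 of 9 pairs, as it was in 95.5% of all 1187 single pairs on the arms. The share of arm pairs with the mutant peak nested inside its partner is not given here. The median length ratio, mutant over wild type, was 0.854 (range 0.527 to 0.983), beside 0.757 over all arm pairs. Summits were within 200 bp in 9 of 9 pairs, with a largest distance of 111 bp, beside 79.9% of arm pairs.

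Density and fold gave opposite directions for most of these pairs. The mutant peak was denser in 7 of 9 pairs, with a median ratio of 1.33, which is close to the 76.3% of arm pairs, whose median ratio was 1.15. The exceptions were the regions with the highest wild-type fold at oc and at btd. At ems, slp1 and slp2, and croc, the region with the highest wild-type fold was a divided one and was also less dense in the mutant. Their joint density ratios were 0.804, 0.908 and 0.709. Picking regions by the wild-type value favours such low ratios. The fold was lower in the mutant in 9 of 9 pairs, with a median ratio of 0.710, beside 89.6% of arm pairs and a median of 0.728. A density over called bases rises when the weaker flanks are not called, and the fold depends on each genotype's own control, so neither ratio by itself measures a change in binding.

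**Figure D3:**
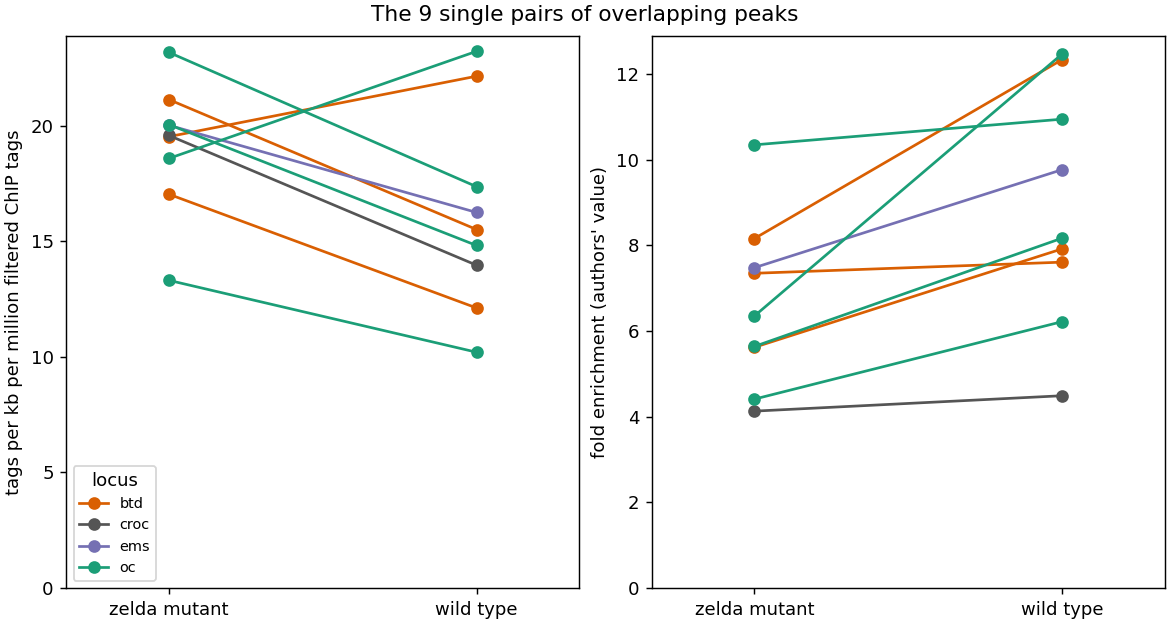
The 9 single pairs by density (left, RPKM) and by the authors' fold enrichment (right), zelda mutant joined to wild type, 1 line per pair. In density 7 lines are higher in the mutant and 2 lower; in fold 9 are lower in the mutant.

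A measure that does not divide by called length was also compared. Because each mutant peak lay inside its wild-type partner, the mutant library held at least the mutant peak's tags over the wild-type interval. In RPM, the ratio of mutant over wild type was above 1 in 6 of the 9 pairs, at 1.10 to 1.34, beside 33.2% of arm pairs, and below it at the oc region from 8547442 (0.530), the btd region from 9583896 (0.655) and the btd region from 9587369 (0.742). The median ratio was 1.13 over the 9 pairs and 0.841 over all arm pairs, which were not limited to nested peaks. Single pairs leave out the divided regions and the unshared peaks. Summed over all peaks of a locus, the ratio of RPM was below 1 at each locus, from 0.419 at slp1 and slp2 to 0.974 at btd. It was 0.733 over all the loci together, beside 0.485 over all arm peaks. RPM takes no account of background, and the fold over local background was lower in the mutant in each of the 9 pairs. A ratio of RPM above 1 therefore does not by itself measure a gain in binding.

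High wild-type fold went with a lower density ratio across the arms too. Among the 53 arm pairs with a wild-type fold of at least 10, a limit chosen after the values were seen, the mutant peak was denser in 24.5%, and the median density ratio was 0.868; choosing pairs by the wild-type value favours a low ratio. These loci held 3 of the 53. The oc region from 8547442 and the btd region from 9583896 ranked 39 and 26 from the highest density ratio, in the lower part and near the middle. The oc region from 8536765 ranked 5 in density ratio, and its ratio of RPM, 1.23, was the highest of the 53.

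**Figure D4:**
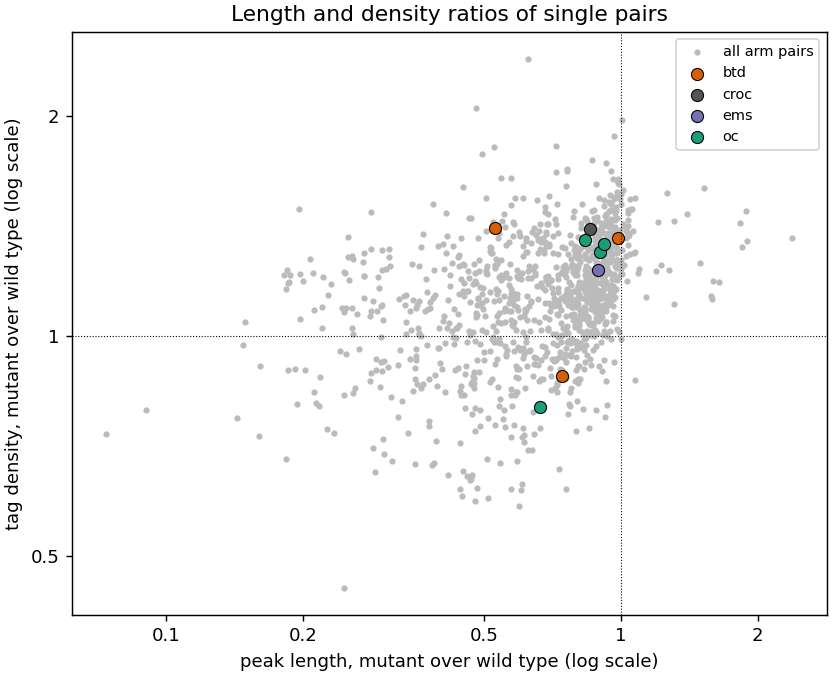
Ratio of tag density (vertical) against ratio of peak length (horizontal), mutant over wild type, both on log scales, for single pairs on the chromosome arms (grey) and the 9 pairs at these loci (coloured by locus). The oc pair at 0.800 and the btd pair at 0.882 lie below a density ratio of 1, and the other 7 lie between 1.23 and 1.41.

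The regions of these loci stood high in both lists. The median fold of the 23 mutant peaks was 5.29, higher than 80.8% of mutant arm peaks, and that of the 17 wild-type peaks was 8.45, higher than 89.9% of wild-type arm peaks. At croc alone, the median fold was higher than 56.3% of mutant arm peaks and 58.4% of wild-type arm peaks. Among the 50 arm peaks with the highest fold, these loci held 2 in the mutant and 5 in wild type. They made up 1.23% of all mutant arm peaks and 0.601% of all wild-type arm peaks. The weakest mutant peak, at croc, had a fold higher than 10.3% of mutant arm peaks, so the loci held weak regions as well.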

How the data were processed

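The submitters' processing notes name Bowtie2, MACS 1.4.2 and the build dm3. Each list, per the file headers, came from 1 ChIP file and 1 control file. The p cutoff was 1e-05, with at most 1 tag per position and the larger dataset scaled towards the smaller. Filtered control tags numbered 17035242 in the mutant and 22487837 in wild type. By filtered tags, the control was thus larger than the ChIP in the mutant and smaller in wild type. The sources used here do not give how replicates were joined. The deposited tags are whole counts inside a peak. The deposited score is −10 times the log10 of the p-value, the deposited fold enrichment is a ratio to local background, and the deposited FDR is a percent.

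Positions are 1-based, and a summit is the start plus its offset minus 1. Densities (RPKM) and tag totals (RPM) were scaled to 1000000 filtered ChIP tags, as counted in the headers. Percentiles were taken within a list over the arms 2L, 2R, 3L, 3R, 4 and X. With 1 list per genotype no test was run. Overlap code was checked on simulated peaks, and the interval of the density ratio on simulated counts. The Wilson and Poisson intervals were not checked in this way. Per locus and list, the peak with the highest fold and each unshared peak are named. The windows, genes and measures were chosen with earlier results of these data known. The planned motif search was not run, since no promoter sequence was used here. Calculations used Python 3.11.15, numpy 2.4.6, pandas 2.3.3, scipy 1.17.1 and matplotlib 3.10.9.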

Additional observations from a re-analysis of the deposited data

How the results depend on the processing

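The 23 mutant and 17 wild-type peaks became 9 and 13 with an FDR of at most 5%, a limit at which the mutant list held no excess. They became 17 and 15 with a score of at least 100. Windows widened by 10 kb on each side gave 29 and 23, and summits inside the windows gave the same numbers as the 1 bp rule. The mutant share found in wild type, 91.3%, became 47.8% when 50% of both peaks had to overlap, 52.2% when summits had to lie within 200 bp and 100% (9 of 9) with an FDR of at most 5% in both lists. The wild-type share, 88.2%, became 64.7% and 70.6% under the same overlap rules and 61.5% (8 of 13) with that FDR limit. It became 100% (13 of 13) for a listed score that stayed at or above 50 when rescaled to the mutant depth, without a new peak call. A score of at least 400, chosen after the data were seen, kept the same 13 peaks and is not a separate check. Arm shares under the summit rule, the FDR limit and the rescaled score are not given here. The values under those settings therefore do not show how these loci compare with the arms. An FDR limit leaves fewer peaks to overlap. Under the 50% rule, at most 1 mutant peak of a divided region can count as shared. What moved any of these values was not tested. The median ratio of mutant over wild type in single pairs, 1.33 for density, turned to 0.710 with fold in its place. The wild-type median percentile, 89.9, became 69.8 with tag number in place of fold. No paired analysis was possible because each genotype has a single list without replicate values, and leaving out replicates was likewise not possible. The mutant depth limits what can be called unbound there.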
